A study of Mus musculus and Acomys cahirinus with 2 samples.

Results

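Metallothioneins and the genes that move zinc in and out of cells were described in single cells of ear skin from Mus musculus, the house mouse, and Acomys cahirinus, a spiny mouse. The members are the metallothioneins Mt1, Mt2 and Mt4, the zinc-sensing transcription factor Mtf1, the zinc exporter Slc30a1 and the zinc importer Slc39a4, and they were picked by symbol, case ignored, in the gene list of each library. These 6 genes were selected on their UMI levels in these same libraries, so their levels by cell class and by species are given as a description, with no test. All 6 are listed among the 28692 genes of the Mus library. Of the 24509 genes of the Acomys library, 4 are members, since Mt1 and Slc30a1 have no row under those symbols there and were not analysed here for Acomys. The 4 members present in both lists belong to 15710 symbols that the lists share.

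Each species has 1 library from adult skin of the ear, labelled day 0, made with the Chromium 3' droplet assay of 10x Genomics, and the series text calls the ears injured. No strain, sex, genotype or number of animals is given, and no agent was named for either group. With 1 library a species no difference between the species has a replicate check, and species, animal, library and gene annotation cannot be told apart. UMI counts (unique molecular identifiers, a tally of captured RNA molecules) were summed over the cells of a class and are given as CPM, counts scaled to a common total of UMIs on the shared symbols. Ranges given in parentheses after a value are exact 95% counting intervals, which leave out any spread between animals, and "called" means a difference of at least 2-fold with at least 10 CPM on either side.

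Metallothioneins are small proteins rich in cysteine that bind zinc and copper ions. Mt1 and Mt2 are made in most tissues and are induced by metals, glucocorticoids and oxidative stress, whereas Mt4 is known from differentiating stratified epithelium. When free zinc rises, MTF1, the protein of Mtf1, binds metal response elements in DNA and switches on metallothionein genes and Slc30a1, whose product exports zinc across the plasma membrane. Slc39a4 encodes the importer ZIP4, whose loss in people causes acrodermatitis enteropathica, a zinc deficiency with skin lesions. Skin is rich in zinc, and the epidermis holds much of it.

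The metallothionein genes lie side by side on the plus strand of mouse chromosome 8 (GRCm38, GENCODE M21 annotation, the build mm10 named for these libraries). Mt4 spans 94137197 to 94139031, Mt2 94172664 to 94173568 and Mt1 94179082 to 94180327, with Mt3, a brain metallothionein that is no member, between Mt4 and Mt2. Mtf1 lies on chromosome 4 (124802104 to 124849800, plus strand), Slc30a1 on chromosome 1 (191906767 to 191913247, plus strand) and Slc39a4 on chromosome 15 (76612383 to 76617384, minus strand). All 6 are annotated as protein coding.

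The promoters of the 4 members with a metal response element core are shown because these genes include the known targets of MTF1, and their levels by cell class follow below. Each run is the window in GRCm38.p6 on the plus strand, from 250 bases before the RefSeq start to 50 after it. The RefSeq starts differ from the GENCODE starts given above. Capitals mark matches to TGCACNC or TGCGCNC on either strand, so that a match on the other strand reads GNGTGCA or GNGCGCA as printed. Mt1 is chr8:94178839-94179138, Mt2 chr8:94172368-94172667, Mt4 chr8:94136954-94137253 and Slc30a1 chr1:191906531-191906830.
Mt1: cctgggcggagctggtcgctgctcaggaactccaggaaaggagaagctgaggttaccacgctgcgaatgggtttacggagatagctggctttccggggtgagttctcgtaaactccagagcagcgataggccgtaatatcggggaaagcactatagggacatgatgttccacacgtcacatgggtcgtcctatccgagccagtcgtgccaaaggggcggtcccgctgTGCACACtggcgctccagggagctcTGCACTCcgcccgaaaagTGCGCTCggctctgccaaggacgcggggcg
Mt2: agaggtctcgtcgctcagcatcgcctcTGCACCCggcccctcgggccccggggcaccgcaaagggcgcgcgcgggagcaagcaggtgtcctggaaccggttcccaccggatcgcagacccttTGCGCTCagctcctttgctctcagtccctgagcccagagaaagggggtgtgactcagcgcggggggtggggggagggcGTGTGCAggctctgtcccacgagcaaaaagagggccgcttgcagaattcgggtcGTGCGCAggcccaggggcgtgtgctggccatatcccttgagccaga
Mt4: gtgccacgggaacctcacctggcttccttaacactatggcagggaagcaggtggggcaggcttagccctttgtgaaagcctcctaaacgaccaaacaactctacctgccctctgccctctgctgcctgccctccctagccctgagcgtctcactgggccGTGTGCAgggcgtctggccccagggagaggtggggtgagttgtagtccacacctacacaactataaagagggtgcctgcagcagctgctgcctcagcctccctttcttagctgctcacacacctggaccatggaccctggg
Slc30a1: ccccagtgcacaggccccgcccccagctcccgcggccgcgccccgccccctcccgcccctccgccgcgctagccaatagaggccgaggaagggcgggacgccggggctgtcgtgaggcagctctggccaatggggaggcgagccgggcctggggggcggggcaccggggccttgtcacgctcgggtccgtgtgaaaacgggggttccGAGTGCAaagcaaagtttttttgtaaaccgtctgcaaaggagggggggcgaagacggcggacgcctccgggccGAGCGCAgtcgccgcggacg

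The Mt1 window holds 3 matches, the Mt2 window 4, the Mt4 window 1 and the Slc30a1 window 2, and that of Mtf1 holds 0; the table matched 5 of the 6 members. Of 32851 promoter windows of the same length, 25.7% hold at least 1 match, 1.97% at least 3 and 0.517% at least 4. The first bases of the Mt1 matches lie at -23, 3 and 21 relative to the RefSeq start site. A match describes the letters only, and no binding was measured. Slc39a4 has no entry in the promoter table used.

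After filtering, 6556 Mus cells with a median of 11754 UMIs and 4603 Acomys cells with a median of 7507 UMIs were kept, and they fell into 20 and 24 clusters, numbered separately in each library. Clusters were named from marker genes, without the members and other zinc transporters among the clustering genes. Basal keratinocyte-like cells (the attached, dividing layer, 3036 in Mus and 1142 in Acomys), suprabasal keratinocyte-like cells (the differentiating layers, 1293 and 964), granular keratinocyte-like cells (the last living layer, 64 and 136), hair follicle and appendage-like cells (412 and 581) and sebocyte-like cells (223 and 336) were named in both. No name was given to the clusters of 21.8% of the Mus and 27.8% of the Acomys cells. Cells of both libraries shared 32 barcodes. Free RNA, read from barcodes with 1 to 10 UMIs, held 1663.5 CPM of Mt1, 1585 CPM of Mt2 and 1832 CPM of Mt4 in the Mus library, and 101 CPM of Mt2 and 63.2 CPM of Mt4 in the Acomys library. A level of a small percentage of these is not read as expression by the cells, and its part in any result was not tested beyond the subtraction of 10% given in the closing section.

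Mt4 was highest in the suprabasal layer of both libraries. In the Mus library it stood at 600.1 CPM in basal cells, 6816 CPM in suprabasal cells and 237 CPM in granular cells. In the Acomys library the same classes held 12.7, 392 and 6.0 CPM. The suprabasal level was the highest of the 5 epithelial classes in both, 11.4-fold that of basal cells in Mus (11.2 to 11.6) and 30.8-fold in Acomys (24.7 to 39.0). Granular cells then held 28.7-fold less than suprabasal cells in Mus (25.1 to 33.0) and 65.4-fold less in Acomys (37.4 to 127).

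Nearly every Mus suprabasal cell, 99.5% (99 to 99.8), carried an Mt4 UMI, against 52.0% of Acomys suprabasal cells (48.8 to 55.2). Thinned to 2500 UMIs a cell, which removes the gap in depth, the shares were 96.2% and 31.9%. In Mus sebocyte-like cells, at 235 CPM or 12.8% of the free RNA level, 80.7% of cells carried an Mt4 UMI and 30.8% after thinning, so a share of that size is not read as expression. Mus granular cells, at 13% of the free RNA level, and Mus follicle cells, at 23.9%, are not read as expressing Mt4 for the same reason. Mus basal cells lay at 32.8% of the free RNA level. Acomys basal cells lay at 20.1%, follicle cells at 24.7%, granular cells at 9.49% and sebocyte-like cells at 7.77% of theirs. None of these Acomys levels is read as expression either, and the Acomys ratios of suprabasal to basal and granular cells rest on them. The Mus ratio of suprabasal to granular cells likewise rests on a granular level not read as expression. Whether the Mus basal level is expression was not tested. Among single Mus suprabasal cells the 10th percentile was 15.9, the median 67.0 and the 90th percentile 118 Mt4 UMIs per 10000.

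The suprabasal clusters differed in Mt4. In the Mus library, cluster 2, led by Krt1 and Clca3a2 beside Mt4, held 8435 CPM, cluster 6, led by Serpinb3b and Endou, 7098 CPM, and cluster 9, led by Tesc, Alox12e and Krt78, 2294 CPM. Unnamed cluster 14, led by the cornified envelope precursor Ivl and the protease Klk5, carried 11 suprabasal markers and held 442 CPM. Unnamed cluster 3 carried Krt1 beside the basal markers Krt5, Col17a1 and Dst, and held 4028 CPM of Mt4 together with 1888 CPM of Mt2. In the Acomys library the suprabasal clusters held 271 CPM (cluster 3, led by Krt1 and Ly6d), 623 CPM (cluster 5, led by Mt4 and Tdh) and 166 CPM (cluster 12, led by Tdh and Aadacl2). In both libraries the suprabasal cluster with the most counted suprabasal markers, 12 of 14 for Mus cluster 9 and 7 of 8 for Acomys cluster 12, had the lowest Mt4 of the 3.

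**Figure D1:**
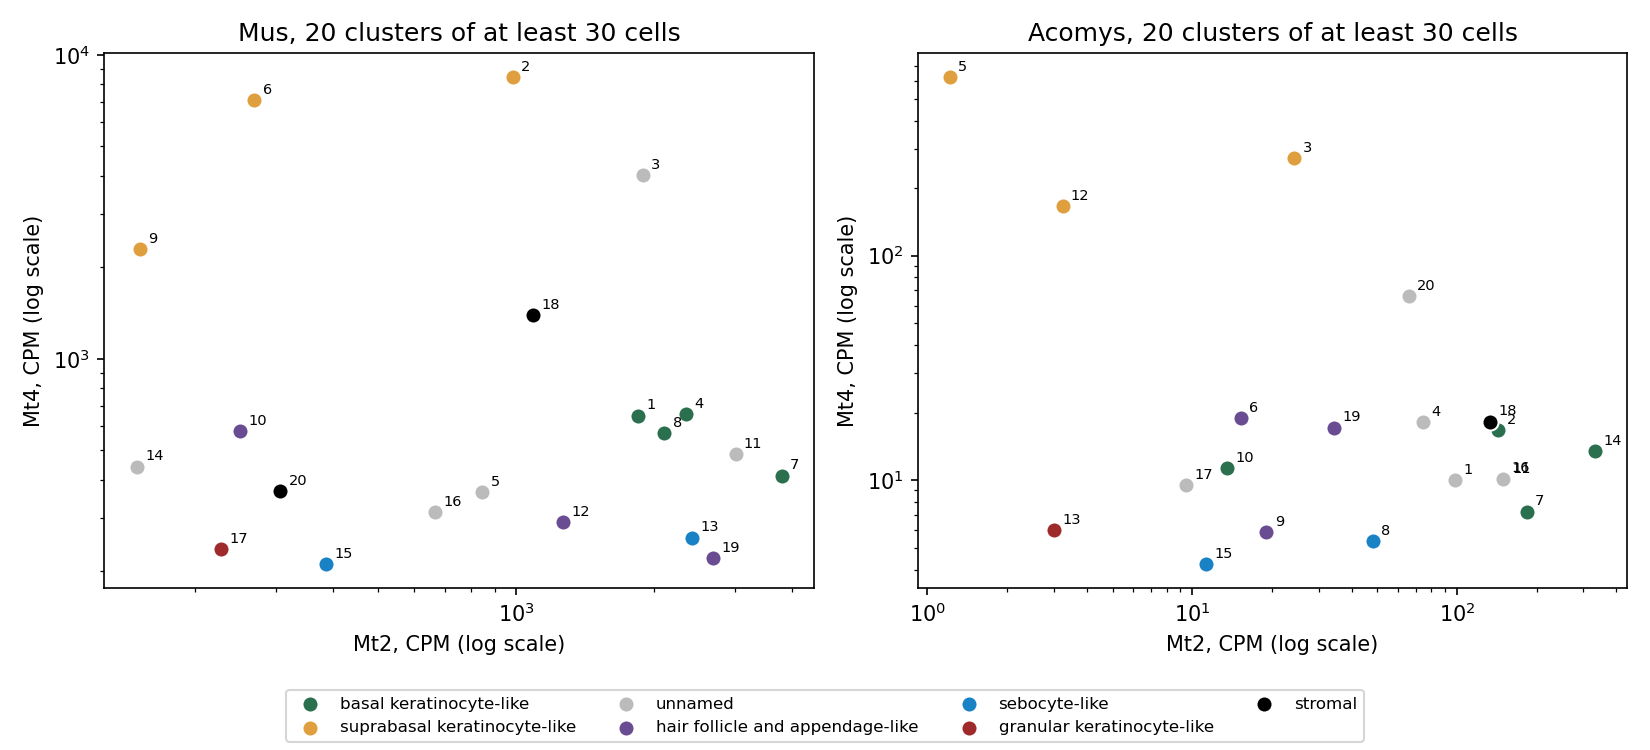
Mt2 (x axis) and Mt4 (y axis) in CPM over shared symbols, both on log scales, for the clusters of at least 30 cells in each library; each point is 1 cluster with its number, coloured by class. Suprabasal clusters stand at the top, from 2294 CPM of Mt4 in Mus and 166 CPM in Acomys upward, and most basal clusters at the right, with Acomys basal cluster 10 at 13.6 CPM of Mt2 as an exception.

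Among the epithelial classes Mt2 was highest in basal cells in both libraries. It stood at 2312 CPM in Mus basal cells, 585 CPM in suprabasal, 228 CPM in granular, 949 CPM in follicle and 1404 CPM in sebocyte-like cells. In the Acomys library these classes held 175, 9.83, 3.0, 17.8 and 33.8 CPM. Suprabasal cells thus held 3.95-fold less Mt2 than basal cells in Mus (3.87 to 4.04) and 17.8-fold less in Acomys (14.1 to 22.7). The Acomys suprabasal level is 9.69% and the Acomys granular level 2.96% of that of free RNA, and Mus granular cells stand at 14.4% of theirs. Acomys follicle cells stand at 17.5%, and none of these 4 is read as expression. An Mt2 UMI was found in 99.6% of Mus basal cells and 44.7% of Acomys basal cells, or 89.6% and 19.1% after thinning to 2500 UMIs. Per 10000 UMIs the 10th percentile, median and 90th percentile of Mus basal cells were 7.28, 18.1 and 40.4, and the Acomys median was 0. The order of classes did not hold for every Mus cluster. Sebocyte-like cluster 13, with 2340 Mt2 UMIs, and follicle cluster 19, with 1082, lay above the Mus basal class level.

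Within the basal class the highest Mt2 of each library was in a cluster with cell cycle markers, but not every such cluster was high. In Mus the cycling cluster 7, led by Top2a and Nusap1, held 3793 CPM of Mt2, against 1998 CPM in the other basal clusters, 1.90-fold (1.86 to 1.94). Those others include cluster 8, led by E2f1 and Mcm genes with 4 cell cycle markers, under the 5 needed to be called cycling, at 2107 CPM. In Acomys the cycling clusters 11 and 14 together held 239 CPM against 141 CPM, 1.69-fold (1.5 to 1.91), with 332 CPM in cluster 14 and 150 CPM in cluster 11. The other Acomys basal clusters did not share 1 level. Clusters 2 and 7 held 143 and 184 CPM, so that cycling cluster 11 lay between them, whereas cluster 10, named basal from 5 markers but led by Krt35, Aspn and Pcp4 with Lhx2, a follicle stem cell factor, among its leading genes, held 13.6 CPM. Without cluster 10, an exclusion chosen after seeing the data, Mt2 (Mt2, log2 ratio, Acomys, cycling against other basal clusters) was 0.61 higher on the log2 scale in cycling clusters, against 0.76 with it. Unnamed clusters with cell cycle genes held 3010 CPM in Mus (cluster 11, led by Krt6a) and 149 CPM in Acomys (cluster 16). Of the members that reached 10 CPM, 0 of 4 were called between cycling and other basal clusters in Mus, beside 11.2% of all genes tested, and 0 of 4 in Acomys, beside 10.9%.

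Mt1, measured in the Mus library only, differed less between basal and suprabasal cells than Mt2 did. It stood at 1845 CPM in basal, 1384 CPM in suprabasal, 188 CPM in granular, 1044 CPM in follicle and 2246 CPM in sebocyte-like cells. Suprabasal cells held 1.33-fold less Mt1 than basal cells (1.31 to 1.35). In granular cells Mt1 was 9.80-fold below basal cells (8.44 to 11.5), at 11.3% of the free RNA level. From suprabasal to granular cells Mt1 was lower by 7.36-fold (6.33 to 8.60) and Mt2 by 2.57-fold (2.24 to 2.96). Both granular levels are a small percentage of free RNA and are not read as expression. These folds are therefore not read as a difference between the genes. The highest cluster was sebocyte-like cluster 13, led by Rgcc, Avpr1a and Gsta3, at 3033 CPM, and sebocyte-like cluster 15, led by the lipid genes Cidea and Elovl6, held 1456 CPM. Hair follicle clusters spread more widely, from 361 CPM in cluster 10, led by Defb6 and Krt79, through 1285 CPM in cluster 12, led by Lhx2 and Lgr5, to 2872 CPM in the cycling cluster 19. Over the 20 Mus clusters the log2 levels of Mt1 and Mt2 had Pearson's r = 0.859, and over single cells r was 0.505 in basal, 0.565 in suprabasal and 0.687 in sebocyte-like cells. These points share a library, its free RNA and its depth. Some class levels turn on which cells are taken and which clusters take the name. With a minimum of 1000 UMIs the Mus sebocyte-like class is 97 cells at 1447 CPM of Mt1 and 396 CPM of Mt2. The follicle class is then 238 cells at 324 and 237 CPM. In that cell set a cluster of 205 cells led by Gsta3, Avpr1a and Rgcc stayed unnamed. So did a cluster of 343 cells with Lhx2 and Lgr5 among its leading genes.

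The ratio of Mt2 to Mt1 UMIs, in which the depth of a cell cancels, was 1.25 in basal cells (1.24 to 1.27) and 0.422 in suprabasal cells (0.412 to 0.433). Both are 3' tag counts, so they are set against each other without a length. The ratio was 1.48 in cycling cluster 7, 1.21 in basal cluster 1 and 1.09 in basal cluster 4, and 0.521, 0.232 and 0.283 in suprabasal clusters 2, 6 and 9. Sebocyte-like cells also differed, with 0.797 in cluster 13 (0.754 to 0.841) and 0.265 in cluster 15 (0.236 to 0.297), the cluster with 13 of 17 sebocyte markers. The lowest ratios were in the suprabasal clusters and in this sebocyte cluster led by lipid genes. Granular cells, where both genes were far below the level of free RNA, stood at 1.21 (0.983 to 1.49). Mt1 and Mt2 have similar sequences, and how reads that fit both were counted is not stated by any source used here.

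**Figure D2:**
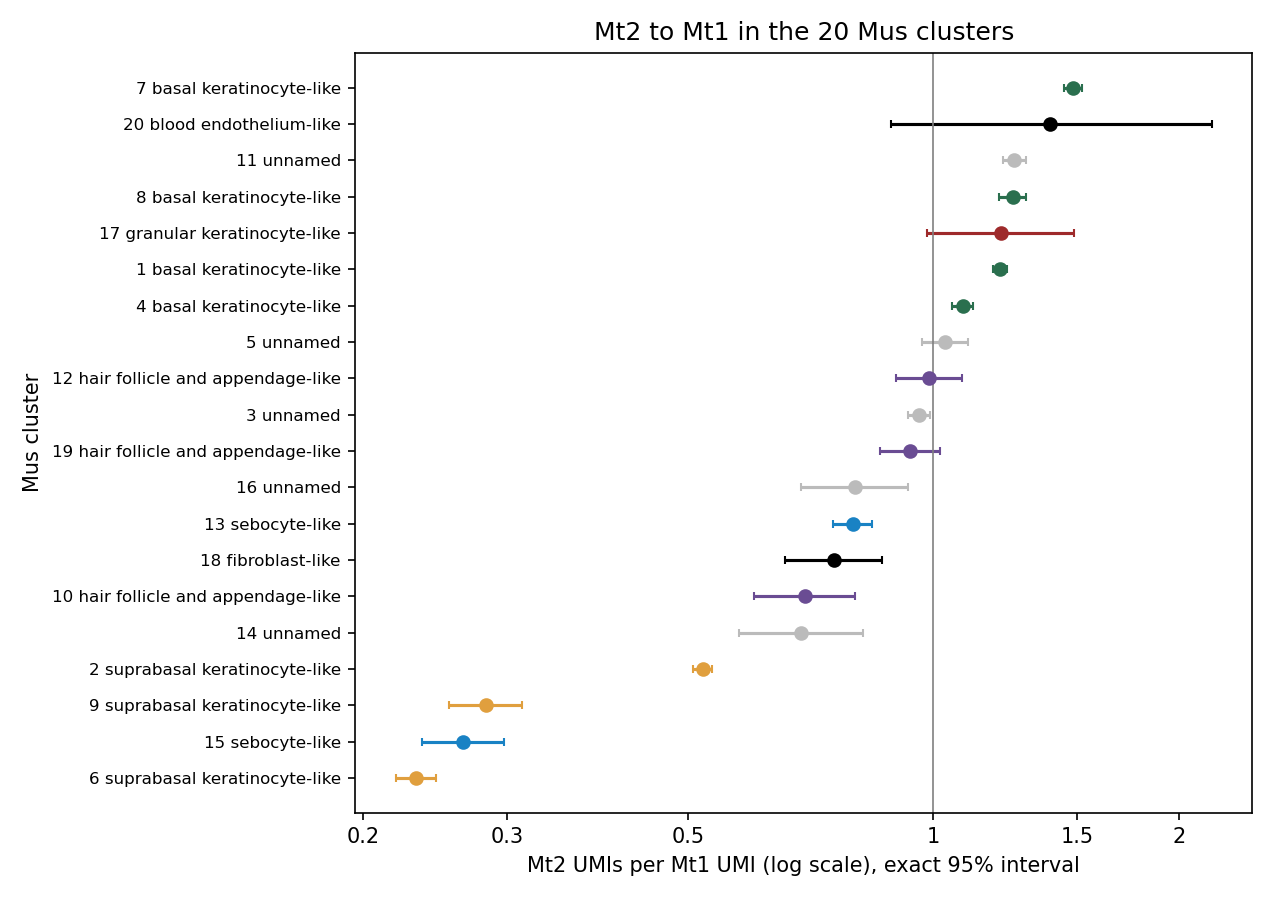
Mt2 UMIs per Mt1 UMI (x axis, log scale) in each of the 20 Mus clusters (y axis); points are ratios of summed UMIs, bars exact 95% intervals, and the vertical line marks a ratio of 1. Suprabasal clusters 6, 9 and 2 and sebocyte-like cluster 15 lie lowest, between 0.232 and 0.521, and the cycling basal cluster 7 lies highest at 1.48.

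Mtf1, which encodes the zinc sensor, was at a low level in every class. In the Mus library it held 21.9 CPM in basal, 31.2 in suprabasal, 39.4 in granular, 23.5 in follicle and 27.4 in sebocyte-like cells. In the Acomys library these classes held 10.5, 18.4, 27.5, 18.5 and 10.9 CPM. The order basal, suprabasal, granular was the same in both libraries, with granular cells 1.80-fold (1.25 to 2.53) and 2.63-fold (1.80 to 3.82) above basal cells. In Mus the intervals of suprabasal and granular cells overlap, as do those of basal and follicle cells. The transcript was found in 14.6% of Mus and 5.43% of Acomys basal cells, so no single cell value is read.

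Slc30a1, the exporter and a known target of MTF1, was measured in the Mus library only and was highest among the epithelial classes in granular cells, where Mt1 and Mt2 were lowest. It stood at 6.31 CPM in basal cells (5.31 to 7.44), 11.3 in suprabasal cells (9.73 to 13), 61.3 in granular cells (46.3 to 79.6), 8.67 in follicle cells and 16.0 in sebocyte-like cells. Granular cells were 9.71-fold above basal cells (6.99 to 13.3). Suprabasal cluster 9 held 22.3 CPM and unnamed cluster 14, with its 11 suprabasal markers, held 56.2 CPM, against 7.06 and 11 CPM in suprabasal clusters 2 and 6. Free RNA held 9.82 CPM, and the levels rest on 56 UMIs in granular cells and 84 in cluster 14. A Slc30a1 UMI was found in 51.6% of granular cells and 4.48% of basal cells, or 10.9% and 0.894% after thinning to 2500 UMIs. Over the 20 Mus clusters r was -0.714 with Mt1, -0.666 with Mt2 and 0.710 with Mtf1, as a description of clusters that share a library. The opposite order did not hold everywhere: sebocyte-like cells were above basal cells in both Slc30a1 (2.54-fold, 1.67 to 3.78) and Mt1 (1.22-fold).

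Slc39a4, the importer, was rare in both libraries. The Mus cells held 41 UMIs in all, or 0.736 CPM, and 18 of them came from sebocyte-like cells, which stood at 9.32 CPM (5.52 to 14.7) against 0.541 CPM in basal cells (0.279 to 0.944). Sebocyte-like cluster 13 held 13 of those UMIs, at 13.4 CPM. No Slc39a4 UMI was found in the Mus barcodes with 1 to 10 UMIs. In the Acomys library 175 UMIs gave 6.67 CPM over all cells, with 9.35 CPM in basal cells (7.10 to 12.1), 9.82 in sebocyte-like cells (5.82 to 15.5), 3.55 in follicle, 1.39 in suprabasal and 0.50 in granular cells. The intervals of Acomys basal and sebocyte-like cells overlap. The highest Acomys level was in unnamed cluster 4, at 55.5 CPM (61 UMIs) against 4.53 CPM in all other cells. That cluster of 393 cells is led by Smim1, Wif1 and Igfbp6, with Lhx2 among its leading genes, and carried the basal markers Krt15, Lamb3, Postn and Cdh3. Acomys basal cluster 10, also with Lhx2 and Postn, followed at 15.8 CPM.

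**Figure D3:**
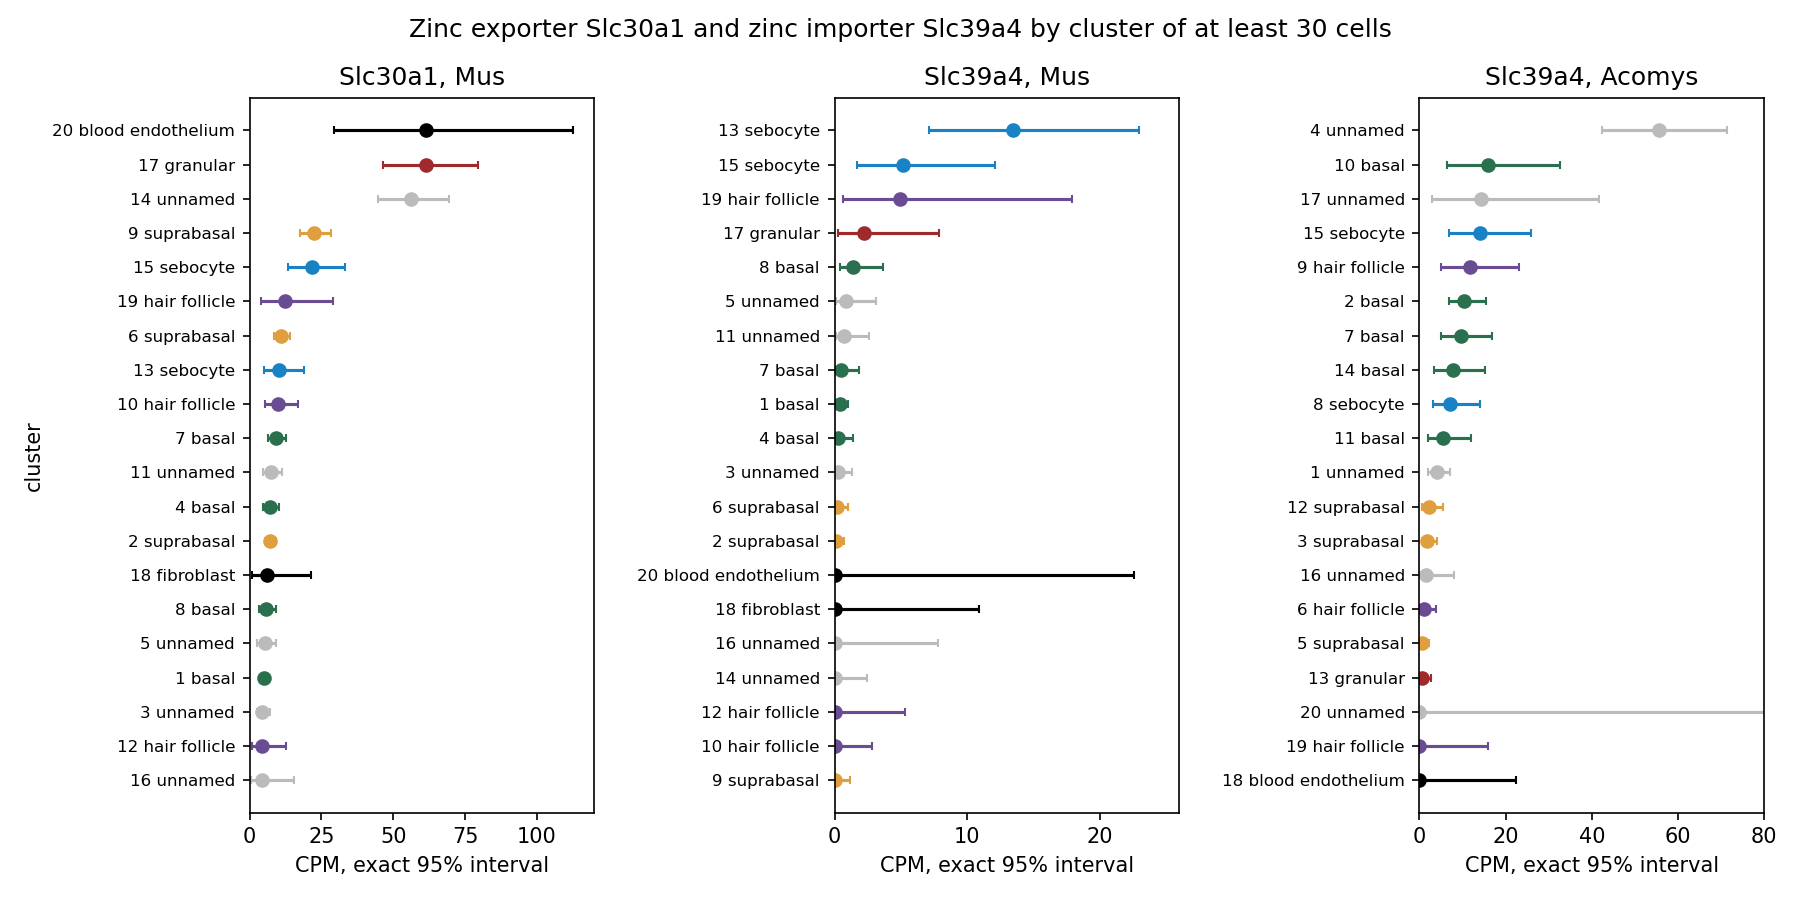
Levels in CPM (x axis) of Slc30a1 in Mus and of Slc39a4 in Mus and Acomys, by cluster of at least 30 cells (y axis, highest on top); points are levels and bars exact 95% intervals, and the bar of Acomys cluster 20, with 0 UMIs, runs past the axis. Granular cluster 17, endothelium-like cluster 20 and unnamed cluster 14 lead for Slc30a1, sebocyte-like clusters for Slc39a4 in Mus, and unnamed cluster 4 for Slc39a4 in Acomys at 55.5 CPM.

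The members called at 2-fold between layers were counted beside the share of all genes that passed the same 2-fold. Between suprabasal and basal cells 2 of 5 tested members were called in Mus (Mt4 higher, Mt2 lower), beside 24.8% of all genes tested, and the same 2 of 3 in Acomys, beside 25.0%. Between granular and basal cells 4 of 5 were called in Mus (Slc30a1 higher, Mt1, Mt2 and Mt4 lower), beside 71.0%, and 3 of 3 in Acomys (Mtf1 higher, Mt2 and Mt4 lower), beside 59.9%. Between granular and suprabasal cells 4 of 5 were called in Mus, beside 56.3%, and 1 of 2, Mt4, in Acomys, beside 35.2%. Follicle cells differed from basal cells in Mt2 only, 1 of 4 in Mus, beside 13.0%, and 1 of 3 in Acomys, beside 16.2%. Sebocyte-like cells differed from basal cells in 2 of 5 members in Mus (Slc30a1 higher, Mt4 lower), beside 24.0%, and in 2 of 3 in Acomys (Mt2 and Mt4 lower), beside 20.6%. With 2 to 5 members tested in a comparison, these counts are not read as differing from the share of all genes.

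**Figure D4:**
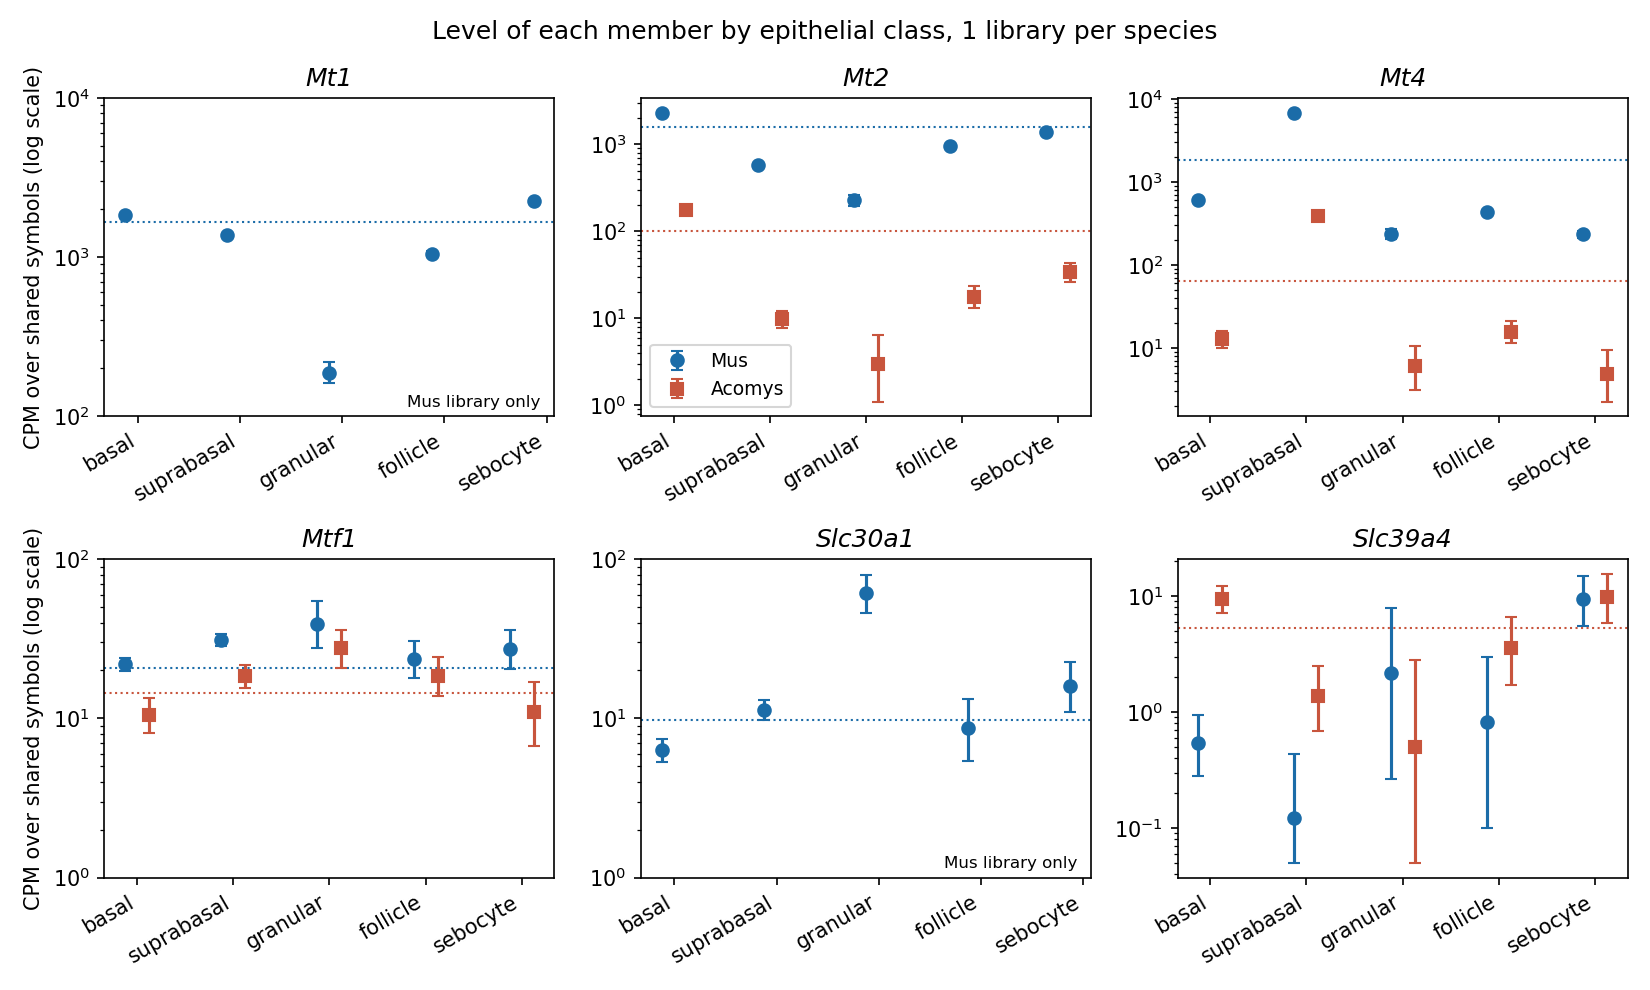
Level of each member in CPM over shared symbols (y axis, log scale) in the 5 epithelial classes (x axis) of the Mus library (circles) and the Acomys library (squares); bars are exact 95% intervals, cut at 0.05 CPM, and dotted lines mark the level in free RNA of each library. Mt4 peaks in suprabasal cells, Mt2 in basal cells and Mtf1 in granular cells of both libraries, and Slc30a1 peaks in granular cells of the Mus library.

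The metallothioneins were far lower in the Acomys library in every epithelial class. Mt2 was lower by 13.2-fold in basal cells (12.5 to 14.1), 59.5-fold in suprabasal cells (47.6 to 75.3), 75.8-fold in granular cells (34.3 to 209), 53.5-fold in follicle cells (40.4 to 72.2) and 41.5-fold in sebocyte-like cells (32.3 to 54.3). The Acomys levels of Mt2 in suprabasal, granular and follicle cells are not read as expression, nor is the Mus level in granular cells. The folds of these classes rest on such levels. The follicle ratios turn on the cells taken and on which clusters take the name. With a minimum of 1000 UMIs follicle cells held 237 CPM of Mt2 and 344 CPM of Mt4 in Mus, and 8.18 and 44.4 CPM in Acomys. Acomys sebocyte-like cells then held 10.8 CPM of Mt2. Mt4 was lower by 17.4-fold in suprabasal cells (16.8 to 18.0), where it is expressed. It was lower by 47.1, 39.6, 28.0 and 47.8-fold in basal, granular, follicle and sebocyte-like cells. There the Mus cells stood at 12.8% to 32.8% and the Acomys cells at 7.77% to 24.7% of their free RNA level. The free RNA itself, which mixes the cells of a library, was 15.6-fold lower for Mt2 and 29.0-fold lower for Mt4 in Acomys. Mtf1 was lower by 2.09-fold in basal cells (1.61 to 2.75), 1.70-fold in suprabasal and 2.51-fold in sebocyte-like cells, and in granular and follicle cells the interval of the ratio includes 1. Slc39a4 went the other way in basal cells, 17.3-fold higher in Acomys (9.18 to 35.4) on 58 and 12 UMIs, just under the 10 CPM needed for a call, and was at 9.82 and 9.32 CPM in the sebocyte-like cells of both libraries, a ratio of 1.05 (0.518 to 2.15).

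Differences of at least 2-fold were frequent between the libraries, and the share of genes at the larger folds above was not computed. The tested members called were 3 of 3 in basal cells (52.2% of all genes tested), 2 of 3 in suprabasal cells (53.2%), 2 of 3 in granular cells (62.0%), 2 of 3 in follicle cells (53.8%) and 3 of 3 in sebocyte-like cells (55.3%). The median log2 ratio of all genes lay between -0.60 and -0.30 in these classes, so the libraries are not centred on each other. The log2 ratios of Mt2 and Mt4 ran from -6.13 to -3.72, and those of Mtf1 from -1.31 to -0.35. The members were selected on their levels in these same libraries, so their distance from that median is given as a description only. In follicle cells Mtf1, at -0.35, lies above the median of -0.55. Whether the Acomys row named Mt2 holds the counterpart of mouse Mt2 alone, or reads of an Mt1 counterpart too, is not stated by any source used here. The Mus sum of Mt1 and Mt2, added after the levels were seen, was 4157 CPM in basal cells, 23.8-fold the Acomys level, and 1969 CPM in suprabasal cells, 200.3-fold. The Acomys suprabasal level of Mt2 in that ratio is not read as expression.

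**Figure D5:**
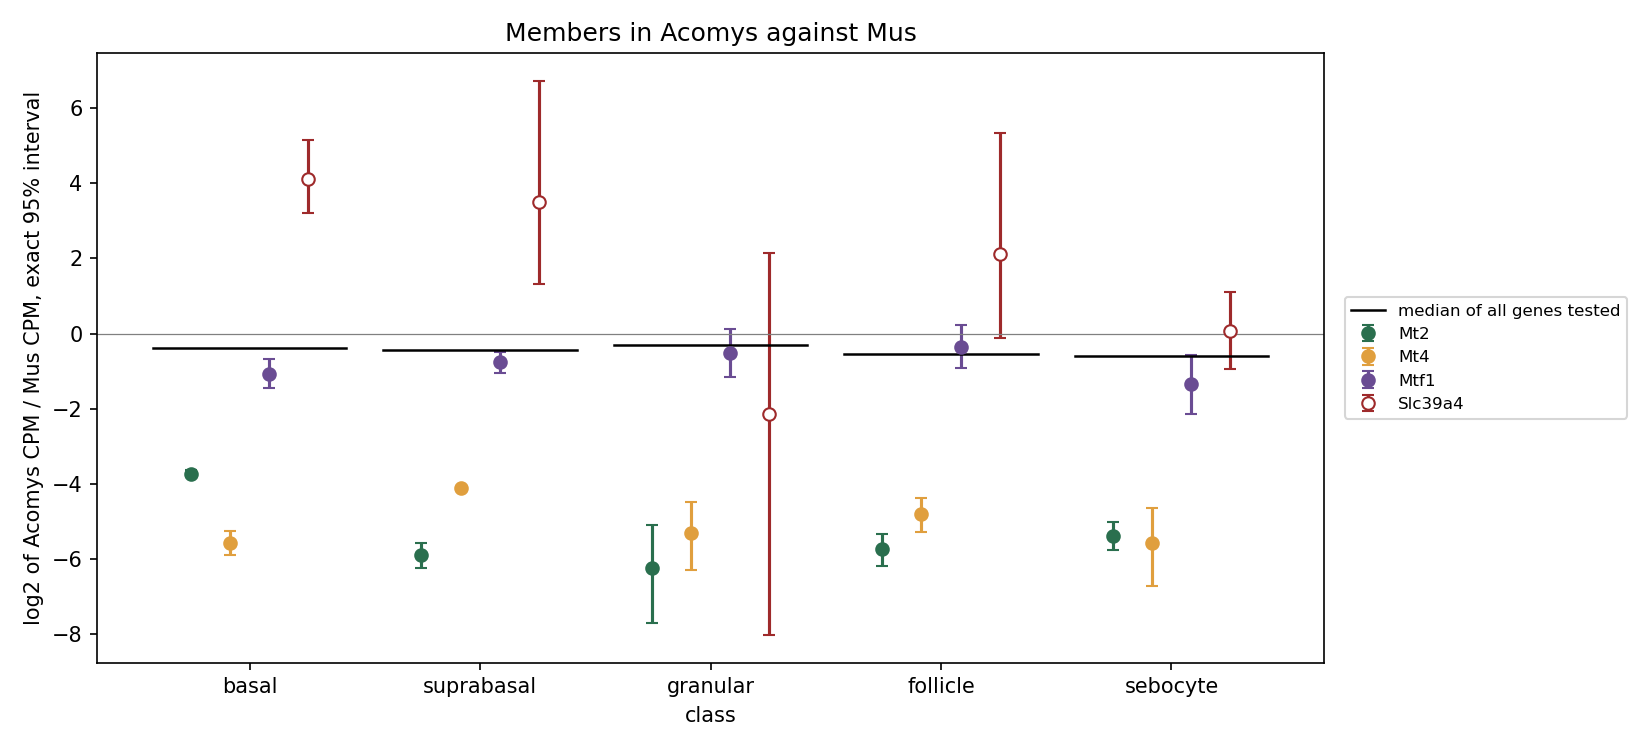
Log2 ratio of Acomys to Mus CPM (y axis) of the 4 members listed in both libraries, by epithelial class (x axis); bars are exact 95% intervals, open symbols were below 10 CPM in both libraries, and black lines mark the median of all genes tested in the class. The plotted ratios have no prior count. Mt2 and Mt4 lie lowest in all 5 classes, at ratios from 0.0132 (Mt2, granular) to 0.0756 (Mt2, basal). The granular Mt2 ratio sets levels against each other that are not read as expression in either library. Mtf1 lies between ratios of 0.398 and 0.785, and Slc39a4 lies above Mtf1 in every class but granular.

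Stromal cells were few, so cells with at least 1000 UMIs were used, 169 blood endothelium-like cells in Mus and 294 in Acomys. In Mus these held 72.2 CPM of Slc30a1 (48.7 to 103), 10.9-fold the level of basal cells (7.10 to 16.2). Granular cells of the same cell set held 63.3 CPM (52.4 to 75.8), an interval that overlaps. The endothelium-like cells held 320 CPM of Mt1, 250 CPM of Mt2 and 407 CPM of Mt4, at 19.2%, 15.8% and 22.2% of the free RNA level, so these 3 are not read as expression. In Acomys the endothelium-like cells held 171 CPM of Mt2 (134 to 214), beside 157 CPM in basal cells of the same cell set, and 169% of the free RNA level. Mt2 of Acomys endothelium-like cells was 1.09-fold that of basal cells (0.851 to 1.38), whereas in Mus it was 9.69-fold below basal cells (8.0 to 11.9). Between the libraries Mt2 of endothelium-like cells differed by 1.46-fold (1.08 to 2.0), on a Mus level that is not read as expression. These values turn on the cells taken: in the main cell set 42 Mus endothelium-like cells held 306 CPM of Mt2, and 89 Acomys cells held 109 CPM, at 107% of the free RNA level and below the 175 CPM of Acomys basal cells. Of the tested members 4 of 5 were called between endothelium-like and basal cells in Mus (Slc30a1 and Mtf1 higher, Mt1 and Mt2 lower), beside 39.6% of all genes, 0 of 4 in Acomys, beside 35.5%, and 2 of 3, Mt4 and Mtf1, were called lower in Acomys endothelium than in Mus, beside 55.3%.

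The other stromal classes of Mus held Mt1 at 1589 CPM in 37 fibroblast-like cells (1366 to 1837), 1057 CPM in 53 chondrocyte-like, 979 CPM in 32 mural-like, 798 CPM in 51 T cell-like and 710 CPM in 29 Langerhans and dendritic-like cells. As a comparison with cells of few RNA species, 63 erythrocyte-like cells of the same cell set held 1728 CPM of Mt1, 1400 CPM of Mt2 and 2682 CPM of Mt4. None of these stromal levels stood above those of erythrocyte-like cells. The Acomys list holds only 2 of the 6 erythrocyte markers, so the CPM total over shared symbols leaves out most globin genes. The comparison therefore cannot decide which stromal levels are expression. The part of free RNA in them was not tested. Fibroblast-like cells held 646 CPM of Mt2 and 393 CPM of Mt4 with a minimum of 1000 UMIs, but 1089.6 CPM and 1396 CPM among the 56 cells of the main cell set, so both turn on which cells are taken. In Acomys 127 chondrocyte-like cells held 51.9 CPM of Mt2 (25.9 to 92.8) and 65 T cell-like cells 19.8 CPM on 2 UMIs. A Mus cluster of 145 cells with the lymphatic genes Ccl21a and Mmrn1, left unnamed, held the highest Mus level of Slc39a4, 51.4 CPM on 11 UMIs. No Slc39a4 UMI was found in blood endothelium-like cells of either library, for which the exact 95% interval reaches 8.88 CPM in Mus and 8.41 CPM in Acomys.

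The rest of the zinc transporter families was read from lists of 9 exporters (the SLC30 family, which lowers zinc in the cytosol) and 13 importers (the SLC39 family, which raises it). In basal cells 4 exporters and 7 importers listed in both libraries reached 10 CPM. Higher in Acomys were Slc39a7, a transporter of the secretory pathway (102 against 40.9 CPM, 2.49-fold, 2.25 to 2.76), Slc39a3 (56.7 against 26.4 CPM, 2.14-fold) and Slc39a8, which also carries manganese (25.8 against 3.65 CPM, 7.07-fold, 5.38 to 9.35). Lower in Acomys were Slc30a4 (0.645 against 19.1 CPM, 29.6-fold), Slc39a9 (1.13 against 13.5 CPM, 12-fold) and Slc39a13 (0 UMIs against 16.9 CPM, at least 34.9-fold with a floor of 3 counts in the class). In suprabasal cells 2 of 4 exporters tested were lower (Slc30a4 and Slc30a6), and of 7 importers 2 were higher (Slc39a7 and Slc39a8) and 3 lower (Slc39a2, Slc39a9 and Slc39a11), beside 14.9% of all genes higher and 38.3% lower in suprabasal cells. In basal cells these shares were 15.1% and 37.2%. Slc30a4 had 16 UMIs and Slc39a13 had 3 UMIs in all Acomys cells, and the part of the gene annotation in this was not tested.

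Several of these transporters were highest in 1 cluster. Slc39a2 was highest in differentiated keratinocytes of both libraries, at 222 CPM in unnamed Mus cluster 14 against 17.8 CPM in the other cells, and at 24.0 CPM in Acomys granular cells against 4.0 CPM. Slc39a11 stood at 167 CPM in Mus sebocyte-like cluster 15 against 13.4 CPM in the other cells, and had 13 UMIs in all Acomys cells. Slc39a8 was highest in clusters with the follicle markers Lhx2 and Sox9 in both libraries, at 50.2 CPM in Mus follicle cluster 12 (35 UMIs) against 2.80 CPM elsewhere, and at 1165 CPM in unnamed Acomys cluster 17 (245 UMIs), led by Wfdc3, Slc39a8 itself and Bmp2, against 17.2 CPM elsewhere. Slc39a6 led among the Mus importers at 48.7 CPM over all cells and 98.0 CPM in suprabasal cluster 6, and is not listed under that symbol in Acomys. Mt3 was rare, with 200 UMIs in Mus and 64 in Acomys, highest in the basal cycling cluster 7 of Mus (10.8 CPM) and in the suprabasal cluster 5 of Acomys (10.7 CPM).

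Lists of genes under related control or moved by handling were set beside the members, since metallothioneins answer to metals, oxidants and glucocorticoids. The shares of all genes called in basal cells, 15.1% higher and 37.2% lower in Acomys, are the background for these lists. Of copper handling genes, 0 were higher and 2 of 6 tested, the copper transporters Slc31a1 and Slc31a2, lower in Acomys in basal cells. Of oxidative stress genes 3 of 7 were higher (Gclm, Nqo1 and Txn1) and 1, Gsr, lower. Of glucocorticoid-responsive genes 1 of 5 was higher (Per1) and 2 lower, Klf9 at 0.483 against 72.6 CPM and Ddit4 at 2.74 against 68.4 CPM. Of 10 dissociation stress genes 5 were higher in basal cells (Fos, Fosb, Jun, Ier3 and Nr4a1) and 1 lower (Btg2), with Ier3 at 770 against 105 CPM. Of this list 1 of 8 was higher and 1 lower in suprabasal cells, beside 14.9% and 38.3% of all genes. In granular cells 2 of 7 were higher and 3 lower, beside 24.0% and 38.0%. In follicle cells 3 of 9 were higher and 0 lower, beside 12.9% and 40.9%. In sebocyte-like cells 1 of 8 was higher and 3 lower, beside 13.4% and 41.85%. Over each list, the median log2 ratio was -0.46, 0.49, -0.78 and 0.89 in that order, beside -0.38 for all genes in basal cells. The part of these genes in the metallothionein levels was not tested.

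The genes whose levels over the 20 clusters of at least 30 cells were most like those of a member were picked by Pearson's r of log2(CPM + 1). For Mus Mt1 they were Hmgn1 (r = 0.928), Polr2j, Twistnb, Fance and Pym1. For Mus Mt2 they were Cotl1 (r = 0.945), Lsm3, Depdc7, Trim28 and Rbbp8. For Mus Mt4 they included Serpinb3b (r = 0.873), Dbi, Tdh and Clca2. In Acomys, Itgb4 (r = 0.886), Ifitm3, Nudt1, Lmnb1 and Maz came first for Mt2, and Ddost (r = 0.841), Gcat, Krt1, Palm3 and Lancl1 for Mt4. No gene was among the 5 of both libraries for Mt2 or for Mt4. The clusters share a library and its free RNA, and 6468 Mus and 5026 Acomys genes were compared.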

How the data were processed

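Counts of UMIs per gene and barcode, as deposited by the authors and not normalized, were read for 1 Mus and 1 Acomys library of 130039670 and 71042559 UMIs. Cell Ranger 2.2.0 and the mouse build mm10 are named for both in the submitters' processing notes; the Acomys gene list has 8324 names that are identifiers alone and no mitochondrial genes, and how it was made is not stated by any source used here. Barcodes were kept from the 99th percentile of UMIs of the top 3000 barcodes divided by 10 upward, with at least 200 genes and at most 20% mitochondrial UMIs, and 386 Mus and 183 Acomys barcodes most like simulated doublets were removed. Cells were clustered on 2000 variable genes and 30 components (Leiden, resolution 1, leidenalg 0.10.2, scikit-learn 1.9.0, Python 3.11.15). The members, Mt3 and all zinc transporters were left out of those genes.

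A cluster took a name from at least 3 markers seen in 20% of its cells at 1.5 times the other clusters, and stayed unnamed where leading genes went against it. The scoring, and a rule that keratin genes among the leading genes void a name outside the epithelium, were set after seeing the data. UMIs were summed per class and given as CPM over 15710 shared symbols, which hold 62.1% and 66.8% of the cells' UMIs. Ratios have exact conditional binomial intervals (scipy 1.17.1), shares exact Clopper-Pearson intervals, and log2 ratios a prior count of 0.5. The steps were checked on simulated data. With 1 library per species no test was run.

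The members and the gene lists were chosen with earlier results of these data known. The text names all 6 members in classes of at least 20 cells, from each list up to 4 of the most abundant genes and those at least 4-fold different with an interval that excludes 2-fold, and for each member of at least 50 CPM the 5 genes of most like pattern. A gene of like pattern for Mt4 is not reported here. Other called genes of the lists, and the clusters singled out, were named after their values were seen. Alternatives changed the cell minimum, mitochondrial limit, doublets, resolution, clustering genes, CPM base, averaging, free RNA, thinning and cell cycle clusters.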

Additional observations from a re-analysis of the deposited data

How the results depend on the processing

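The called ratios of endothelium-like cells were not run through the alternatives. Some alternatives leave ratios unchanged by construction. A lower minimum level for a call alters which genes are tested but no ratio. The mitochondrial limit removes no Acomys cell, since that list has no mitochondrial genes. Excluding an Acomys cluster cannot change a ratio within Mus. The tally counts these fixed values as kept. Of the 34 other member ratios called, 16 alternatives gave 544 values, of which 543 kept their direction and 531 were still at least 2-fold. The exception in direction was Mt4 in Acomys granular against basal cells, at a log2 ratio of 0.30 with cells thinned to 2500 UMIs (Mt4, log2 ratio, Acomys, granular keratinocyte-like against basal); the cause was not tested.

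Counts of called members moved as follows. Members higher in Acomys than in Mus went from 0 to 1 in basal cells with a minimum of 1000 UMIs, no doublet removal, resolution 0.5, CPM without ribosomal or the 20 most abundant genes, a mean over cells, no cycling clusters, at least 1 UMI in place of 10 CPM, thinning, or unnamed clusters counted in. They went to 1 in suprabasal and follicle cells with at least 1 UMI, and to 1 in sebocyte-like cells with a minimum of 1000 UMIs or thinning. Other zinc transporters lower in Acomys basal cells went from 3 to 5 with at least 1 UMI, and those higher in suprabasal cells from 2 to 1 with CPM over all genes. In Mus, follicle against basal cells went from 1 to 2 (minimum of 1000 UMIs, resolution 0.5 or 2, no cycling clusters, thinning, unnamed clusters counted in), sebocyte-like from 2 to 1 (no doublet removal) or 3 (minimum of 1000 UMIs, which adds Mt2, log2 ratio, Mus, sebocyte-like against basal, at -2.61) and cycling from 0 to 1 (unnamed clusters counted in). In Acomys, suprabasal against basal cells went from 2 to 4 (CPM without the 20 most abundant genes, no cycling clusters). Acomys follicle went from 1 to 3 (minimum of 1000 UMIs, no cycling clusters) or 2 (no doublet removal, resolution 0.5, both other CPM bases, at least 1 UMI, thinning, unnamed clusters counted in). Acomys sebocyte-like went from 2 to 1 (minimum of 1000 UMIs, CPM over all genes, 10% free RNA subtracted, thinning). Acomys granular against suprabasal cells went from 1 to 2 (minimum of 1000 UMIs, no doublet removal, resolution 2, members kept for clustering, both other CPM bases, at least 1 UMI). Acomys cycling went from 0 to 1 (minimum of 1000 UMIs, no doublet removal, resolution 0.5, thinning) or 2 (unnamed clusters counted in). The causes were not tested.

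Subtracting 10% of free RNA left Slc30a1 in Mus granular against basal cells at a log2 ratio of 3.51 (Slc30a1, log2 ratio, Mus, granular keratinocyte-like against basal). The same subtraction took Mt2 of Acomys suprabasal cells to 0 counts, so its ratio to Mus is then set by the prior count. The counting of unnamed clusters and the exclusion of Acomys cluster 10 were chosen after seeing the data. The cycling comparison has no value without cycling clusters. No paired analysis was possible because each species has 1 library. Depth limits Slc39a4 in Mus, with 41 UMIs, and stromal classes in both libraries.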
